A study of Arabidopsis thaliana with 208 samples.

Results

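Root cells need reduced ferredoxin to turn nitrite into ammonium and to make glutamate. Across the series 8 Arabidopsis genes of the steps that provide it were followed, though not every isoform is known from the plastid. They were taken by name: the plastid glucose-6-phosphate dehydrogenase genes G6PD3 (AT1G24280) and G6PD2 (AT5G13110), the 6-phosphogluconate dehydrogenase genes PGD1 (AT1G64190), PGD2 (AT3G02360) and PGD3 (AT5G41670), the root-type ferredoxin-NADP reductase genes RFNR1 (AT4G05390) and RFNR2 (AT1G30510), and the root-type ferredoxin gene FD3 (AT2G27510). These are 8 of the 33602 loci in the count files and of the 33323 nuclear loci kept, and all 8 passed the filter on low counts.

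In leaves, light reduces ferredoxin. In roots the electrons come from sugar: glucose-6-phosphate dehydrogenase and 6-phosphogluconate dehydrogenase, the dehydrogenases of the oxidative pentose phosphate pathway, each make NADPH, root-type ferredoxin-NADP reductase passes the electrons from NADPH to root-type ferredoxin, and nitrite reductase and ferredoxin-dependent glutamate synthase draw on that ferredoxin in the plastid. Genes of these steps are known as quick responders when nitrate is given to nitrogen-starved roots. The plants studied here grew on 1 concentration from sowing, so the values below compare standing levels.

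The samples were roots of seedlings 9 days old, grown on medium with 10 or 1 mM KNO3. Because the rest of the medium, KCl included, was the same, potassium rose with nitrate, and the effects of the 2 ions cannot be told apart. The plants were 12 T-DNA insertion lines (SALK_146141, SALK_100002, SALK_094437C, SALK_085964C, SALK_070847C, SALK_035980, SALK_015182, SALK_012253, SAIL_1207_H04, GABI_868_E02, GABI_699B09 and GABI_513E07) and the wild type Col, with 4 replicates in each of the 26 combinations of line and KNO3. A replicate pooled the seedlings of 2 plates, and the labels name each line without the gene it disrupts or the number of insertions. BRAD-seq, a method that counts tags near the 3′ ends of transcripts, gave 52 libraries at each concentration, and each was sequenced in 2 runs that were summed here, to between 3981966 and 13695037 counts.

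Levels are in CPM, the count of a gene relative to the total count of all nuclear genes in the library, scaled by TMM factors. A 3′ tag count does not grow with transcript length, but capture can differ from gene to gene, so levels of different genes are not ranked. A gene is said to rise or fall where edgeR's quasi-likelihood test gave a Benjamini-Hochberg adjusted p under 0.05 over all 19664 genes tested. The label of roots was checked on 7 root markers (COBL9 and EXPA7 of root hairs, CASP1 and SCR of the endodermis, PLT1 of the meristem, SMB of the root cap and PHO1 of the stele), which had counts in every library. Their summed level lay between 381 and 560 CPM at 10 mM and between 310 and 496 CPM at 1 mM, and all 7 changed over the lines. The root hair markers COBL9 and EXPA7 fell, with log2 changes of -0.33 and -0.32, as did most of the 8 genes, and PHO1 (0.77), PLT1 (0.38), SMB (0.23), CASP1 (0.15) and SCR (0.11) rose. COBL9 (-0.35), EXPA7 (-0.40), PLT1 (0.43) and PHO1 (0.78) also passed within the strips that hold both concentrations, and the part of these markers in the results was not tested. Markers of photosynthetic tissue were present at a low level, with a summed level of 105 ± 27.8 CPM at 10 mM and 51.7 ± 12.8 CPM at 1 mM (SD, n = 52 each), and all 8 of them rose at 10 mM. 7 of these 8 had counts in every library, and LHCB2.1 was at 0 in 3 libraries. In bulk roots, fewer cells of a type and less RNA per cell cannot be told apart. The labels also place the libraries in 13 sets of 8 (marked "str" there, called strips here). Only 3 strips mixed the concentrations, with 12 libraries of each, while 5 others were all 10 mM and 5 all 1 mM. Results are therefore also given within the mixed strips. No line occurs at both concentrations in the same strip, and within each mixed strip the concentrations carry different replicate numbers. Line and replicate number thus differ along with KNO3 there.

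The upstream sequences of 3 of the genes are shown because they are the only ones of the 8 whose 300 bases before the annotated start hold no exon of another gene, and because they cover a fall of the first pathway step (G6PD3), the gene that moved the other way (PGD1) and the electron carrier at the end (FD3). They were read 5′ to 3′ on the gene's strand from the RefSeq assembly TAIR10.1, at chr1:8609038-8609337 (plus strand) for G6PD3, chr1:23827137-23827436 (minus strand) for PGD1 and chr2:11759589-11759888 (minus strand) for FD3. The letters in capitals are the motif GAATC, bound by the nitrate-regulated HRS1/HHO repressors.
G6PD3: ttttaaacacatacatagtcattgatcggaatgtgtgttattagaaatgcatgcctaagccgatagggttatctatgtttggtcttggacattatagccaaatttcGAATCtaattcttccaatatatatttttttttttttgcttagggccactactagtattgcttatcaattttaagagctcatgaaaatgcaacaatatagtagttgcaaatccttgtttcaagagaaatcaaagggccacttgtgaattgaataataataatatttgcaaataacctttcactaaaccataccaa
PGD1: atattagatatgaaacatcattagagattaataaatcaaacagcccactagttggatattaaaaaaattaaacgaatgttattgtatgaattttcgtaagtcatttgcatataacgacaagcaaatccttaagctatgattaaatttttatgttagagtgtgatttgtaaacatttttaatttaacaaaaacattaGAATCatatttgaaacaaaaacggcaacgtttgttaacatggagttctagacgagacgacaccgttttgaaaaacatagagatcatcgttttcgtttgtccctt
FD3: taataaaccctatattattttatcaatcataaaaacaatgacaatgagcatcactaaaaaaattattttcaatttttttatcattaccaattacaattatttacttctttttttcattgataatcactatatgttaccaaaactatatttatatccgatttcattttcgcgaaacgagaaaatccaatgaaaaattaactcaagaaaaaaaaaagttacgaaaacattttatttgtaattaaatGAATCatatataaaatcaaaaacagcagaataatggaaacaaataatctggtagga
GAATC, searched on both strands, was found at position -194 of G6PD3, -104 of PGD1, -180 of PGD2, -244 of RFNR2 and -56 of FD3, counted back from the start of the gene. Thus 5 of the 8 windows held it, and 45.0% of the windows of 27443 nuclear genes do. The paired half-sites of the nitrate-responsive element that NLP factors bind (CTT, any 10 bases, AAG) were in none of the 8 windows and in 9.71% of all windows. The G-box CACGTG was in none of the 8 and in 7.09% of all. A window without these letters says nothing about the factor.

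The annotated genes are compact. G6PD3 lies at chr1:8609338-8612580 with 10 exons and G6PD2 at chr5:4158639-4161845 with 9, both on the plus strand. PGD1 is a single exon at chr1:23825328-23827136 on the minus strand, while PGD2 (chr3:481776-484152, plus) and PGD3 (chr5:16664674-16667390, minus) have 2 exons each. RFNR1 lies at chr4:2738531-2740927 with 6 exons, RFNR2 at chr1:10806930-10809188 with 5 and FD3 at chr2:11757955-11759588 with 2, all on the minus strand. The 3′ ends of G6PD3 and PGD1, where tags fall, overlap the 3′ ends of a gene on the other strand, AT1G24290 and AT1G64185, and both genes also hold an antisense noncoding RNA. The strand setting of the counting is not given in the sources used here, so reads of overlapping genes cannot be told apart with certainty. AT1G24290 was at 2.02 ± 0.637 CPM at 10 mM and 1.55 ± 0.603 CPM at 1 mM, and AT1G64185 at 4.13 ± 0.948 and 3.88 ± 1.00 CPM, far below the genes they overlap. Of the 30-base words in the last 400 transcript bases, 12 of 371 of PGD1 occur elsewhere in the nuclear genome and 0 of 371 of each of the other 7 genes do.

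Over the 13 lines, 7 of the 8 genes fell at 10 mM KNO3 relative to 1 mM and 1, PGD1, rose. RFNR2, PGD3, G6PD3 and FD3 fell furthest, to between 0.539 and 0.644 of their level at 1 mM. RFNR1, PGD2 and G6PD2 fell by less, to between 0.814 and 0.904 of it. Most of the root transcriptome moved in this comparison: 64.5% of all genes tested passed the threshold, 34.1% higher and 30.4% lower, so that 8 of 8 is a small step above the background and the sizes say more than the count. The median log2 change was -0.47 over the 8 genes and 0.02 over all genes tested. An absolute log2 change of at least 0.5 was reached by 4 of the 8 genes and by 3360 of the 19664.

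The first step has the plastid enzymes G6PD3 and G6PD2. G6PD3 was at 19.3 CPM in the lowest, 26.4 in the median and 36.9 in the highest library at 10 mM, against 32.0, 44.4 and 60.1 CPM at 1 mM. The ranges overlapped, yet 42 of the 52 libraries at 10 mM lay below every library at 1 mM. The log2 change was -0.72 ± 0.04 (SE, adjusted p = 7.02e-30), and within the mixed strips -0.89 (adjusted p = 2.13e-07). G6PD2 was at 20.1, 31.3 and 41.7 CPM at 10 mM, against 23.4, 34.9 and 45.6 CPM at 1 mM. Here the ranges were nearly the same, with 1 library at 10 mM below all those at 1 mM. The log2 change of G6PD2 was -0.15 ± 0.04 (adjusted p = 0.00248). It rested on the libraries numbered replicate 1: without them it was -0.03 (adjusted p = 0.553), and in the mixed strips it was -0.24 (adjusted p = 0.0751).

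The next dehydrogenase step has PGD1, PGD2 and PGD3, of which PGD1 and PGD3 are known in cytosol and plastid and PGD2 in cytosol and peroxisome. PGD3 was at 49.0, 60.3 and 84.3 CPM (lowest, median and highest library) at 10 mM, against 81.8, 102 and 138 CPM at 1 mM. The 2 sets of libraries were almost separate, with 50 of 52 at 10 mM below every library at 1 mM. Its log2 change was -0.74 ± 0.04 (adjusted p = 3.50e-34), and -0.82 in the mixed strips (adjusted p = 5.19e-07).

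PGD2 was at 107, 141 and 176 CPM at 10 mM, against 125, 163 and 247 CPM at 1 mM, a shift within wide overlap. Its log2 change was -0.23 ± 0.04 (adjusted p = 6.22e-08), and -0.32 in the mixed strips (adjusted p = 0.015). PGD1 ran the other way, at 95.2, 127 and 155 CPM at 10 mM, against 85.0, 108 and 133 CPM at 1 mM. 20 of the 52 libraries at 10 mM lay above every library at 1 mM. The log2 change of PGD1 was 0.22 ± 0.03 (adjusted p = 1.17e-08), but only 0.06 ± 0.08 within the mixed strips (adjusted p = 0.589) and 0.08 ± 0.06 with strip in the model (adjusted p = 0.261), so the rise did not hold within strips.

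The reductases that hand electrons to ferredoxin moved by unequal amounts. RFNR2 was at 131, 176 and 272 CPM at 10 mM, against 263, 329 and 476 CPM at 1 mM. A single library at 10 mM, a SALK_012253 replicate, reached into the range of 1 mM, and the other 51 lay below it. The log2 change was -0.89 ± 0.04 (adjusted p = 3.93e-35), the largest of the 8 genes, and -0.97 in the mixed strips (adjusted p = 2.51e-08). RFNR1 was at 29.7, 38.8 and 55.2 CPM at 10 mM, against 37.6, 47.1 and 83.9 CPM at 1 mM. Its ranges overlapped widely, and its log2 change was -0.30 ± 0.03 (adjusted p = 8.57e-13), with -0.30 in the mixed strips (adjusted p = 0.024).

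FD3, the electron carrier itself, was at 393, 478 and 573 CPM at 10 mM, against 539, 728 and 1095 CPM at 1 mM. 49 of the 52 libraries at 10 mM lay below every library at 1 mM. Its log2 change was -0.64 ± 0.03 (adjusted p = 3.20e-35), and -0.78 in the mixed strips (adjusted p = 6.30e-07). Summed over the 8 genes, the level was 1081 ± 54.1 CPM at 10 mM and 1576 ± 113 CPM at 1 mM (SD, n = 52 each), and the 2 sets of libraries did not overlap. FD3 and RFNR2 weigh most in this sum, with means of 476 and 180 CPM at 10 mM and 740 and 333 CPM at 1 mM. The sum therefore does not show the rise of PGD1 or the small change of G6PD2.

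**Figure D1:**
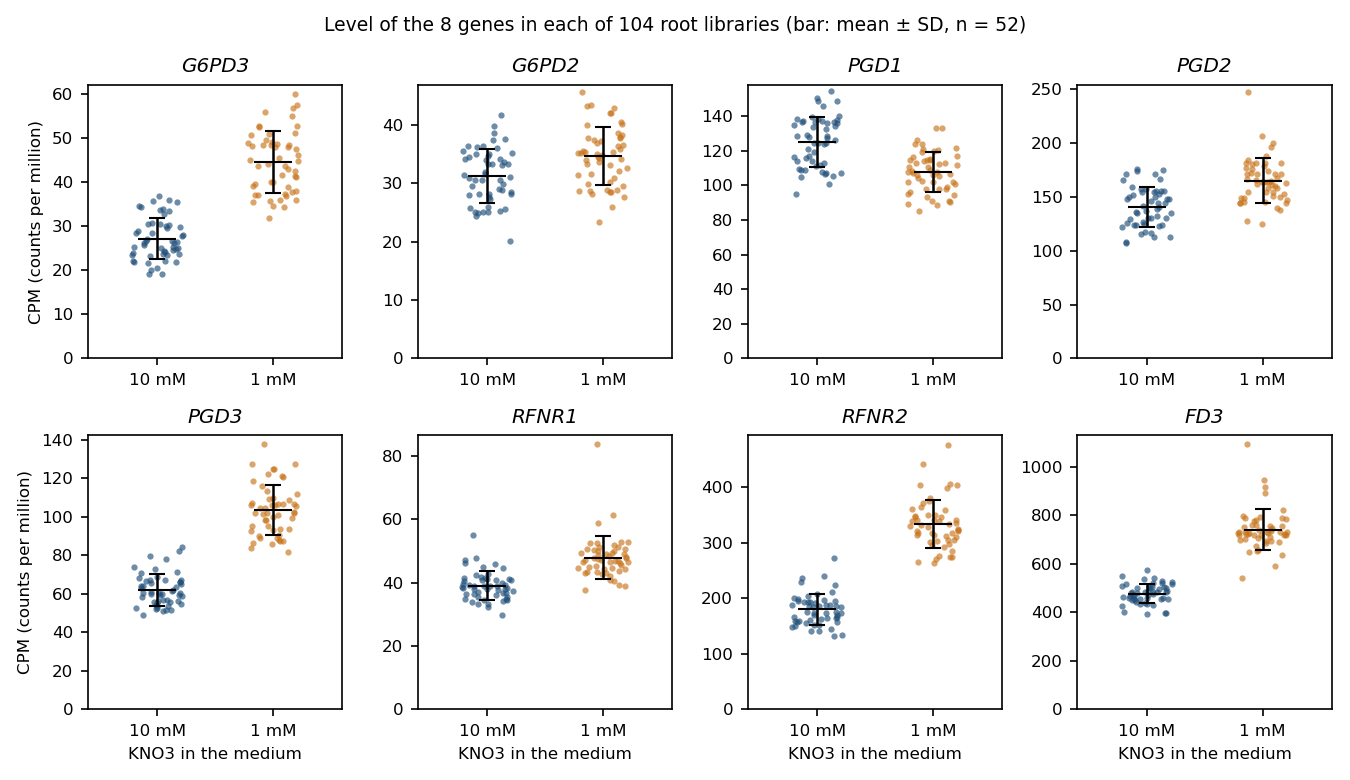
Level of each gene in CPM (y axis, from 0) in every library at 10 mM (blue, left) and 1 mM KNO3 (orange, right), with the bar at the mean and whiskers of 1 SD over 52 libraries. RFNR2, PGD3 and FD3 separate the concentrations almost fully, G6PD3 does so for 42 of 52 libraries at 10 mM, G6PD2 hardly does, and PGD1 lies higher at 10 mM.

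The spread showed the same division. KNO3 accounted for 83.8% of the sum of squares of log2 CPM of FD3, 83.3% of that of RFNR2, 80.8% for PGD3 and 70.1% for G6PD3. It accounted for 42.9% for RFNR1, 31.2% for PGD1, 28.8% for PGD2 and 10.5% for G6PD2, in which 76.4% lay between replicates of a group. Line alone held between 1.62% (RFNR2) and 8.44% (G6PD2). Strip was not in this model, so the share of KNO3 also holds any strip differences that go along with it. The mean coefficient of variation among the 4 replicates of a group ran between 7.96% for FD3 and 14.6% for G6PD2.

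Isoforms of 1 step could be set against each other within a library, where the scaling of libraries cancels. The mean log2 ratio of G6PD3 to G6PD2 counts was -0.21 ± 0.26 at 10 mM and 0.36 ± 0.25 at 1 mM (SD, n = 52 each), a difference of -0.57. That of PGD1 to PGD2 was -0.17 ± 0.12 at 10 mM and -0.61 ± 0.17 at 1 mM, a difference of 0.45. The ratio of PGD3 to PGD1 moved most, to -1.02 ± 0.20 at 10 mM against -0.06 ± 0.16 at 1 mM, a difference of -0.96. PGD1 thus gained on both PGD2 and PGD3 at 10 mM in all 13 lines.

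The ratio of PGD3 to PGD2 differed by -0.51, that of RFNR2 to RFNR1 by -0.60 and that of RFNR2 to FD3 by -0.27. Each of the 6 differences had the same sign in 13 of 13 lines and an adjusted p of 1e-05 over the 6 pairs, the smallest that a two-sided permutation test with 100000 resamples within lines can give. In the mixed strips labels were permuted within strips, and the first 5 had adjusted p of 3e-04 or less, while RFNR2 to FD3 differed by -0.20 (adjusted p = 0.18). Both concentrations were present there for 8 lines, with the concentrations of a line in different strips. The first 5 kept their sign in all 8 of these lines, and RFNR2 to FD3 in 4 of 8.

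**Figure D2:**
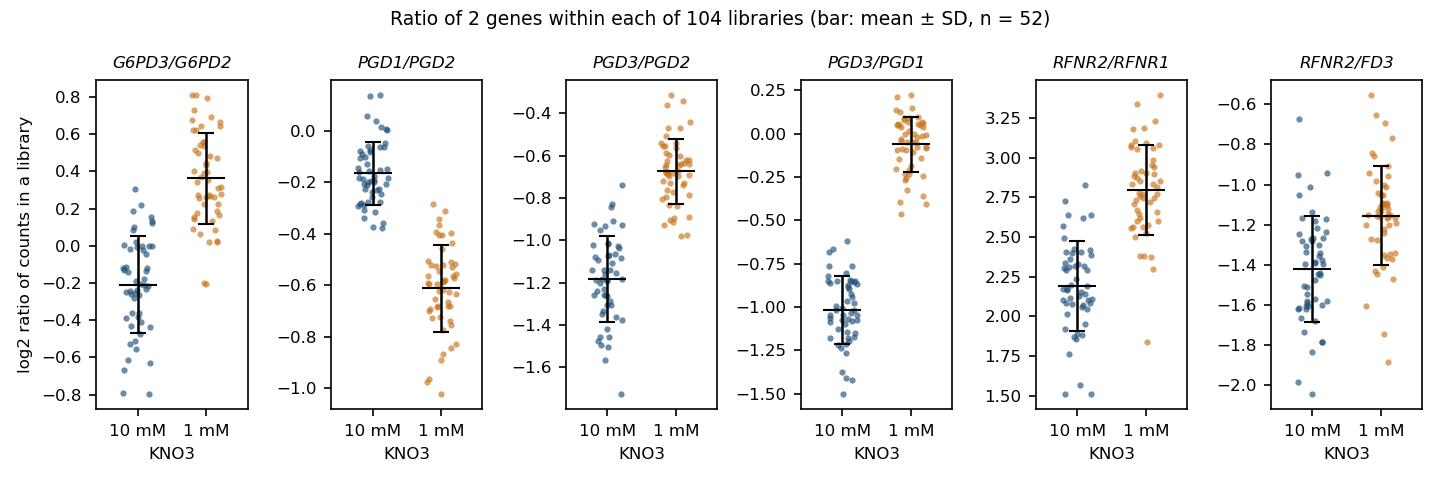
Log2 ratio of the counts of 2 genes within each library (y axis; 0 is equal counts) at 10 mM (blue, left) and 1 mM KNO3 (orange, right), with mean and SD over 52 libraries. PGD3/PGD1 moves furthest, with a difference of -0.96, and RFNR2/FD3 least, with -0.27.

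In wild type Col alone, with 4 libraries at each concentration, 5 of the 8 genes fell and none rose, where 24.3% of all genes passed the threshold and 12.6% fell. RFNR2 was at 151, 183, 157 and 194 CPM at 10 mM, against 476, 302, 441 and 310 CPM at 1 mM, with no overlap and a wide spread at 1 mM. Its log2 change was -1.16 ± 0.15 (edgeR adjusted p = 1.33e-09). PGD3 was at 60.3, 61.5, 52.6 and 63.8 CPM at 10 mM, against 107, 93.4, 125 and 113 CPM at 1 mM, and FD3 at 521, 535, 437 and 459 CPM at 10 mM, against 699, 647, 693 and 790 CPM at 1 mM. Neither overlapped. On the log2 scale PGD3 fell by 0.88, G6PD3 by 0.83, PGD2 by 0.68 and FD3 by 0.53.

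The other 3 did not pass the test in Col. G6PD2 had a log2 change of -0.22 with a 95% interval of -0.53 to 0.09, RFNR1 of -0.08 (-0.32 to 0.16) and PGD1 of 0.06 (-0.18 to 0.29). All 3 intervals include the value found over all lines, and these genes cannot be called unchanged in Col. The call of FD3 was lost when run 1 was used alone (log2 change -0.46, adjusted p = 0.123).

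Line by line, 3 of the 4 genes that fell furthest did so in every line. RFNR2, PGD3 and FD3 fell in 13 of 13 lines, and in each line the 4 libraries at 10 mM lay below the 4 at 1 mM. How many of all genes tested did so was not counted. The log2 change of RFNR2 ranged between -1.16 in Col and -0.73 in GABI_513E07, that of PGD3 between -1.003 in SALK_100002 and -0.56 in SAIL_1207_H04, and that of FD3 between -0.85 in SALK_146141 and -0.50 in GABI_699B09. G6PD3 fell in 12 lines, most in GABI_868_E02 (log2 change -1.09), where the libraries were at 21.9, 20.2, 23.7 and 26.2 CPM at 10 mM, against 48.4, 44.7, 42.5 and 60.1 CPM at 1 mM. The exception was GABI_513E07, with 33.6, 28.9, 36.9 and 32.7 CPM at 10 mM, against 44.1, 38.0, 34.3 and 48.3 CPM at 1 mM. Those ranges overlap, and the log2 change of -0.32 did not pass the test (adjusted p = 0.122).

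Of the smaller changes, RFNR1 fell in 4 lines, PGD2 in 2 (Col and SALK_100002) and G6PD2 in none, while PGD1 rose in 4. In sign they were uniform: the log2 change was below 0 in all 13 lines for G6PD2, PGD2 and RFNR1 and above 0 in all 13 for PGD1. How many of all genes tested kept the same sign in all 13 lines was not counted. The lines also share strips, most of which hold a single concentration. That of RFNR1 ranged between -0.66 in SALK_146141 and -0.04 in GABI_699B09, that of G6PD2 between -0.29 in SALK_100002 and -0.01 in SALK_070847C, and that of PGD1 between 0.04 in SALK_100002 and 0.36 in SALK_094437C. Altogether 61 of the tests of the 8 genes in 13 lines passed, 57 lower and 4 higher, beside 18% of all gene tests in these 13 comparisons, 9.44% lower and 8.54% higher. When the libraries of each replicate number were left out in turn, 50 of the 61 calls held in all 4 fits. All 13 calls of each of RFNR2, PGD3 and FD3 held, and 9 of the 12 of G6PD3, whereas 1 of the 4 of RFNR1, 1 of the 2 of PGD2 and 0 of the 4 of PGD1 did. The 3 lines that lost G6PD3 were SAIL_1207_H04, SALK_015182 and SALK_070847C, the last at -0.38 without replicate 4 (edgeR adjusted p = 0.128). PGD2 in SALK_100002 (-0.37, adjusted p = 0.0394) held in 0 of the 4 fits.

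**Figure D3:**
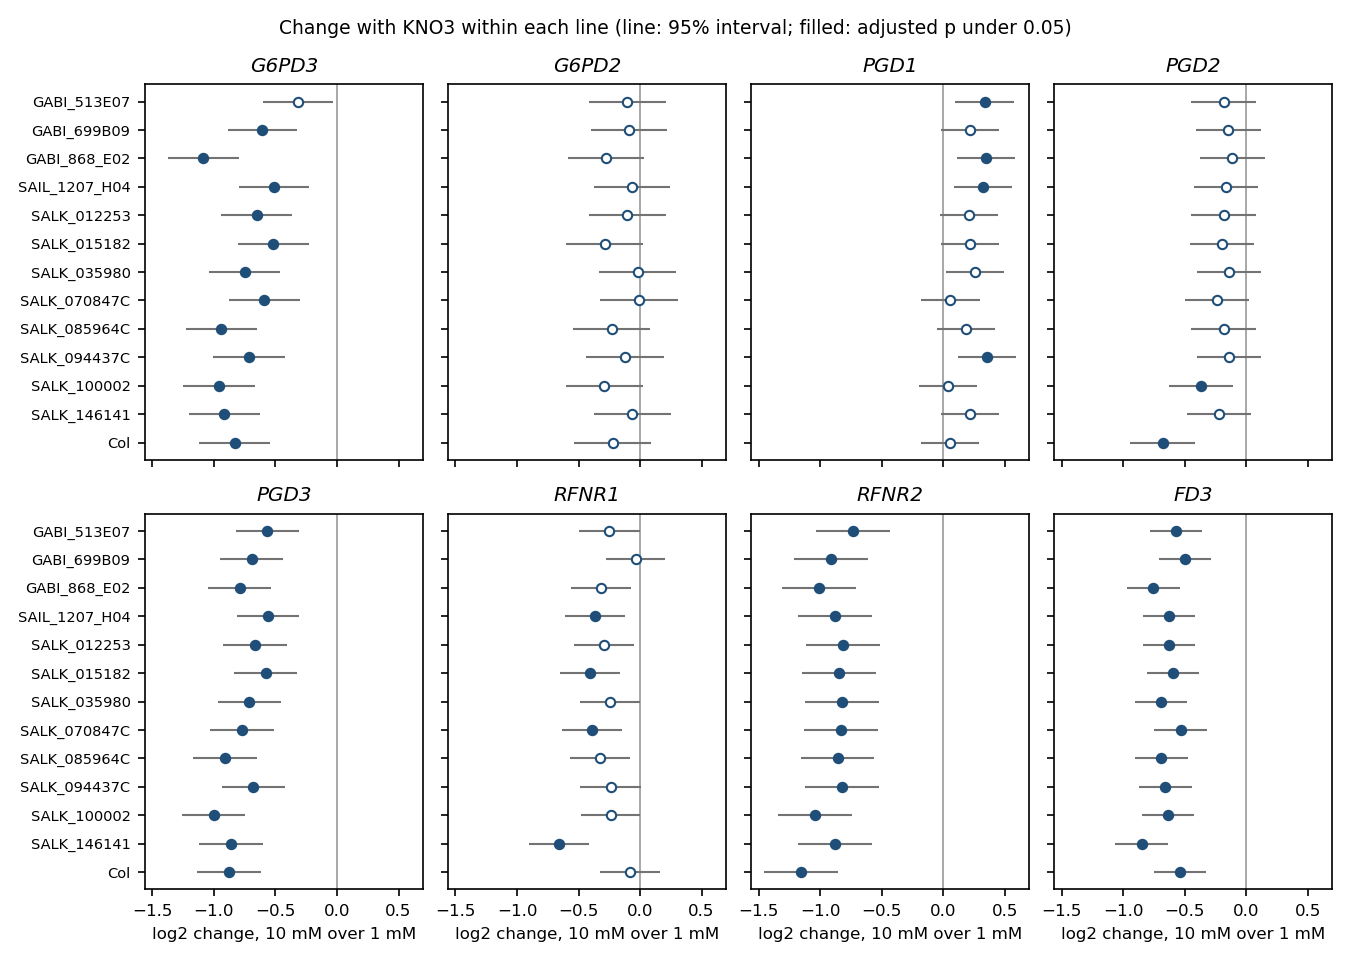
Log2 change at 10 mM over 1 mM KNO3 (x axis) for each gene in the 12 T-DNA lines and, at the bottom, Col, with 95% intervals; filled points have an adjusted p under 0.05. RFNR2, PGD3 and FD3 are filled in all 13 lines, while PGD2 is filled in SALK_100002 and in Col, where it is -0.68.

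PGD2 fell most in Col, but no T-DNA line passed the test of a difference in response from Col. In Col it was at 108, 130, 117 and 151 CPM at 10 mM, against 200, 184, 247 and 181 CPM at 1 mM. No library overlapped, and among the 13 lines Col had the lowest mean at 10 mM (127 CPM) and the highest at 1 mM (203 CPM). The log2 change was -0.68 in Col and between -0.37 and -0.11 in the 12 T-DNA lines. In the test of the difference, line response minus Col response, PGD2 gave 0.31 to 0.57 with an unadjusted p under 0.05 in 11 of 12 lines, and 0 of 12 passed after adjustment, with a smallest adjusted p of 0.355. All 12 comparisons share the same 8 Col libraries, so they are not 12 separate observations. The pattern was not particular to PGD2. RFNR2 also fell most in Col (-1.16) and had its highest line mean at 1 mM there (382 CPM). Its differences in response ran from 0.12 to 0.42, of which 1 had an unadjusted p under 0.05.

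Over all 8 genes, 0 of 96 tests of a difference in response passed in edgeR, and DESeq2 and limma-voom also called 0. The background of adjusted calls is 0.00212% of gene tests in these comparisons. An unadjusted p under 0.05 was found in 15 of the 96, and 11 of them are the PGD2 tests that share the Col libraries. The share of all gene tests with such an unadjusted p was not counted. The intervals were wide. For G6PD3 in GABI_513E07 the difference was 0.52, with a 95% interval of 0.11 to 0.92 before adjustment and an adjusted p of 0.851, so a difference of this size did not pass over all genes.

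Within 1 concentration the highest line mean was between 1.13 (PGD3 at 1 mM) and 1.54 (G6PD3 at 10 mM) times the lowest for each gene. Neighbours in the order of lines were closer than the larger of their SDs in all but 2 of the 192 neighbouring pairs. The exceptions were PGD2 at 1 mM, where Col lay above SALK_100002, and G6PD3 at 10 mM, where GABI_513E07 lay above SAIL_1207_H04. Sorted neighbours lie close in any case, so this shows only that the order is mostly unresolved, not that lines were alike. Averaged over both concentrations, 1 of 96 tests of a line against Col passed, beside 1.33% of gene tests in these 12 comparisons.

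That gene was G6PD3 in GABI_699B09, at 33.8, 35.7, 34.5 and 35.4 CPM at 10 mM and 52.8, 51.2, 51.0 and 57.6 CPM at 1 mM, against 24.3, 25.3, 28.0 and 23.3 CPM and 37.7, 41.5, 47.5 and 52.8 CPM in Col. At 10 mM no library of the line overlapped with Col, and at 1 mM the ranges overlapped. The log2 difference was 0.36 ± 0.10 (adjusted p = 0.00904). It was lost without replicate 1 (0.32, adjusted p = 0.108) and in either run alone. GABI_699B09 differed from Col in 11.6% of all genes, the most of any line, and 4 of the 10 tested genes nearest to G6PD3 on the chromosome were among them, with log2 differences between -2.08 and 0.74 over the 10.

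A larger difference in the same line, chosen after its values were seen, lay in another gene of the first step. G6PD4 (AT1G09420) encodes an isoform known to lack catalytic activity of its own and to bind G6PD1. It averaged 29.7 ± 5.25 CPM at 10 mM and 23.8 ± 2.20 CPM at 1 mM in GABI_699B09, against 2.79 ± 0.407 and 3.60 ± 0.464 CPM in Col (SD, n = 4 each). The lowest library of GABI_699B09 had 21.2 CPM and the highest of the other 96 libraries 7.90 CPM. The log2 difference from Col was 3.05 ± 0.17 (adjusted p = 1.96e-28) and 2.84 or more in each alternative. Of the 10 nearest tested genes 1 differed, AT1G09440, with 0.60.

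Of the 42 tested genes of the 5 pathway lists outside the 8, G6PD4 and 3 others of 504 line tests passed: LFNR1, a leaf-type reductase, was higher in GABI_513E07 (log2 difference 0.66, adjusted p = 0.000677), and RPE, the plastid ribulose-phosphate epimerase, was lower in GABI_699B09 (-0.38, adjusted p = 0.00436) and in SALK_012253 (-0.42, adjusted p = 0.0283). Those 4 calls are a smaller share than the 1.33% of all gene tests in these comparisons, so the count says nothing particular about the lists.

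The rest of the oxidative branch moved in both directions. Of 9 listed genes 8 were tested, and 3 rose, 3 fell and 2 did not pass over all lines. Over all genes tested 34.1% rose and 30.4% fell, so these counts are near the background. The median log2 change was 0.03, close to that of all genes. G6PD1, a plastid isoform regulated by thioredoxin, rose most: it was at 4.49 ± 1.06 CPM at 10 mM and 1.73 ± 0.597 CPM at 1 mM (SD, n = 52 each), a log2 change of 1.39 ± 0.07. The 6-phosphogluconolactonase genes PGL1 and PGL2, of the step between the dehydrogenases, rose by 0.81 and 0.41. G6PD4 fell by 0.42 on the log2 scale over all lines and was lower at 10 mM in 11 of the 12 lines other than GABI_699B09. Its change passed the test in 3 of those 12, and not in Col (-0.37, edgeR adjusted p = 0.358). In GABI_699B09 G6PD4 was higher at 10 mM, with a log2 change of 0.32 ± 0.20 that did not pass (adjusted p = 0.336). PGL5 was outside the test, with a mean of 0.0324 CPM at 10 mM.

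Among leaf-type and other ferredoxins and reductases, 5 of 6 tested genes rose, 0 fell and 1 did not pass, with a median log2 change of 0.45, beside 34.1% higher over all genes. FD3, RFNR1 and RFNR2 fell. FDC1, a ferredoxin-like protein with an extended C terminus, was at 9.09 ± 1.51 CPM at 10 mM and 5.09 ± 0.895 CPM at 1 mM, a log2 change of 0.83. FD2, the main leaf ferredoxin, was at 86.3 ± 13.7 and 56.7 ± 9.67 CPM, a change of 0.61, and LFNR1 and the leaf ferredoxin FD1 changed by 0.57 and 0.33.

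The 8 markers of photosynthetic tissue moved with this group and with G6PD1, with log2 changes between 0.73 and 1.64, and their part in these results was not tested. Within the mixed strips 2 of the 6 passed, FDC1 (0.93, edgeR adjusted p = 7.26e-06) and FD2 (0.45, adjusted p = 0.00142). LFNR1 (0.33, adjusted p = 0.0667) and FD1 (-0.04, adjusted p = 0.844) did not. FD4 was outside the test, with a mean of 0.0208 CPM at 10 mM.

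The non-oxidative branch, which recycles pentose phosphates, and the plastid sugar phosphate carriers and isomerases held more falls than rises. Of 15 tested genes 9 fell, 3 rose and 3 did not pass, with a median log2 change of -0.17, beside 30.4% lower and 34.1% higher and a median of 0.02 over all genes tested. In the mixed strips the number of rises was 1. Transketolase TKL2 was at 30.3 ± 4.40 CPM at 10 mM and 43.8 ± 6.39 CPM at 1 mM, a change of -0.53. Transaldolase TAL2 changed by -0.42, the cytosolic phosphoglucose isomerase PGIc by -0.32 and transketolase TKL1 by -0.30. GPT2, a glucose-6-phosphate carrier, was outside the test, with a mean of 0.0246 CPM at 10 mM.

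Another list held 8 genes of nitrate, nitrite and sulfite reduction, glutamate synthesis and siroheme synthesis. Not all of their products draw on ferredoxin: GLT1 encodes an NADH-dependent glutamate synthase and UPM1 acts in siroheme synthesis. Nitrate reductase is not among the ferredoxin users named above. Of these 8 genes 4 fell, 2 rose and 2 did not pass, beside 30.4% lower and 34.1% higher over all genes. The number of rises was 1 in the mixed strips and in either run alone, and 1 to 3 without 1 replicate number. The nitrate reductase genes moved in opposite directions: NIA2 was at 86.3 ± 14.4 CPM at 10 mM and 352 ± 54.2 CPM at 1 mM (log2 change -2.03), and NIA1 at 487 ± 91.6 and 209 ± 29.8 CPM (1.22). GLU2, the ferredoxin-dependent glutamate synthase gene known from roots, changed by -0.74, and UPM1, which acts in making the siroheme of nitrite reductase, by -0.46. NIR1, the gene of nitrite reductase itself, changed by -0.30 (edgeR adjusted p = 2.86e-10), and by -0.45 in the mixed strips (adjusted p = 0.00208).

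Other sources of NADPH were mixed, with 2 of 5 tested genes higher and 2 lower. NADP-malic enzyme genes NADP-ME1 and NADP-ME2 changed by -1.07 and -0.20 and NADP-ME4 by 0.09, while cICDH, the cytosolic NADP-isocitrate dehydrogenase, changed by 0.17. The background is again 34.1% higher and 30.4% lower. The rises of NADP-ME4 and cICDH did not pass in the mixed strips (adjusted p = 0.462 and 0.318). GAPN was outside the test, with a mean of 0.257 CPM at 10 mM.

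**Figure D4:**
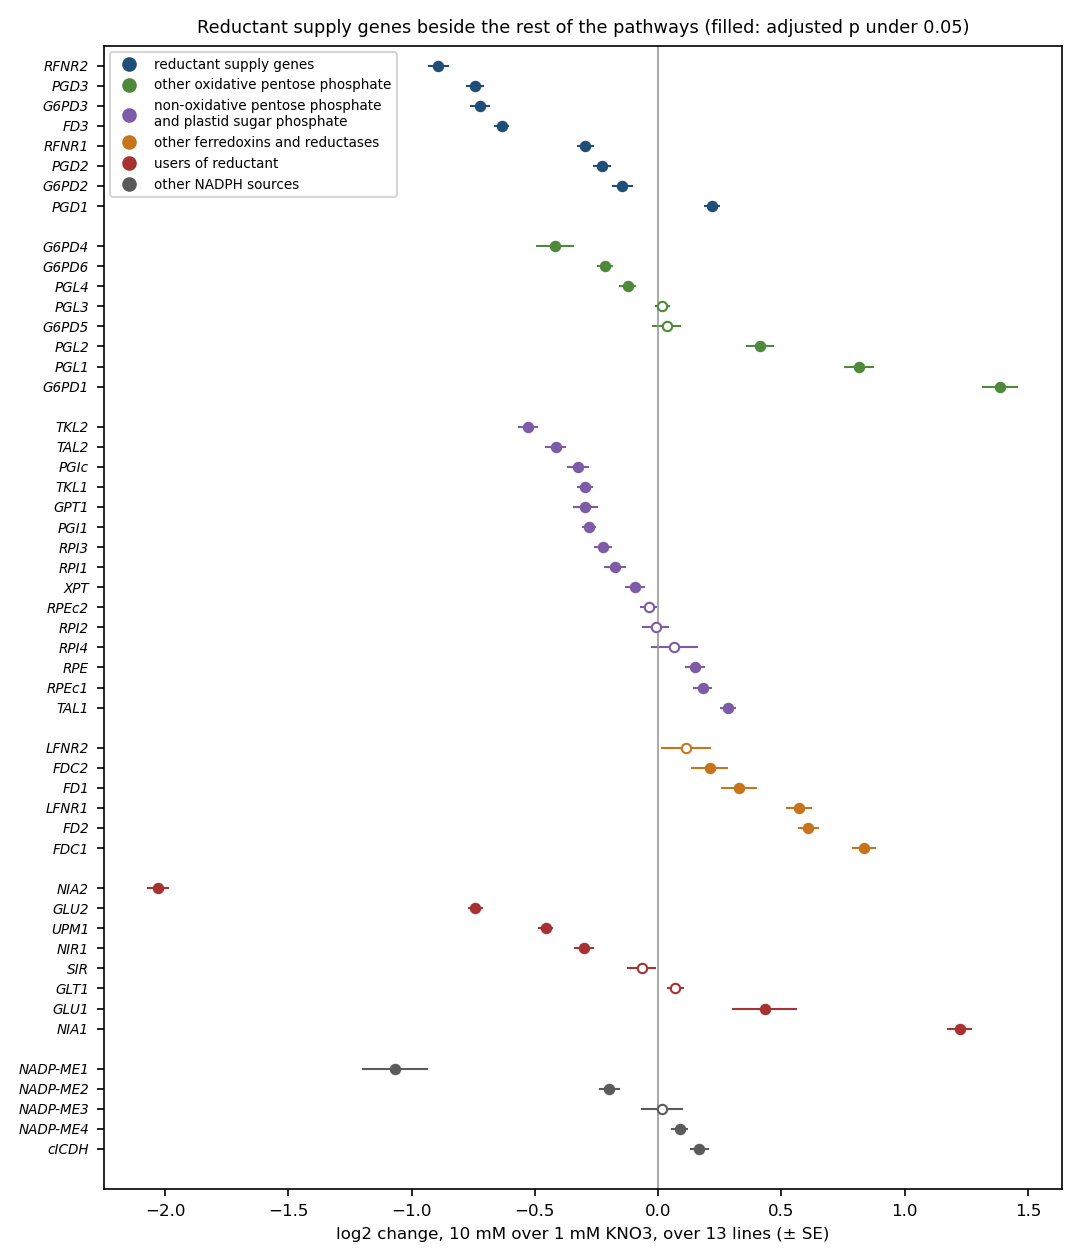
Log2 change at 10 mM over 1 mM KNO3 over the 13 lines (x axis, ± SE) for the 8 reductant supply genes and the 42 tested genes of the 5 pathway lists, sorted within each list; filled points have an adjusted p under 0.05. The other ferredoxins and reductases lie to the right of 0, opposite to RFNR2, FD3 and RFNR1, and NIA2 (-2.03) and G6PD1 (1.39) mark the ends of the range.

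How the 8 genes vary together depended on the scale of comparison. Over the 26 group means, which span both concentrations, the Pearson r of log2 CPM was 0.97 between PGD3 and RFNR2, 0.97 between PGD3 and FD3 and 0.95 between G6PD3 and PGD3, and PGD1 was negative with the 7 others (-0.85 to -0.52). Taken as deviations from the mean of their own concentration over all libraries, the highest r was 0.64, between PGD1 and PGD2, a pair with -0.55 over group means. PGD2 with PGD3 gave 0.51, and RFNR2 with G6PD2 gave 0.52. RFNR2 with FD3 gave -0.08 and RFNR1 was between -0.28 and 0.06 with the 7 others. These r describe libraries that share lines, strips and depth, and no p is attached.

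**Figure D5:**
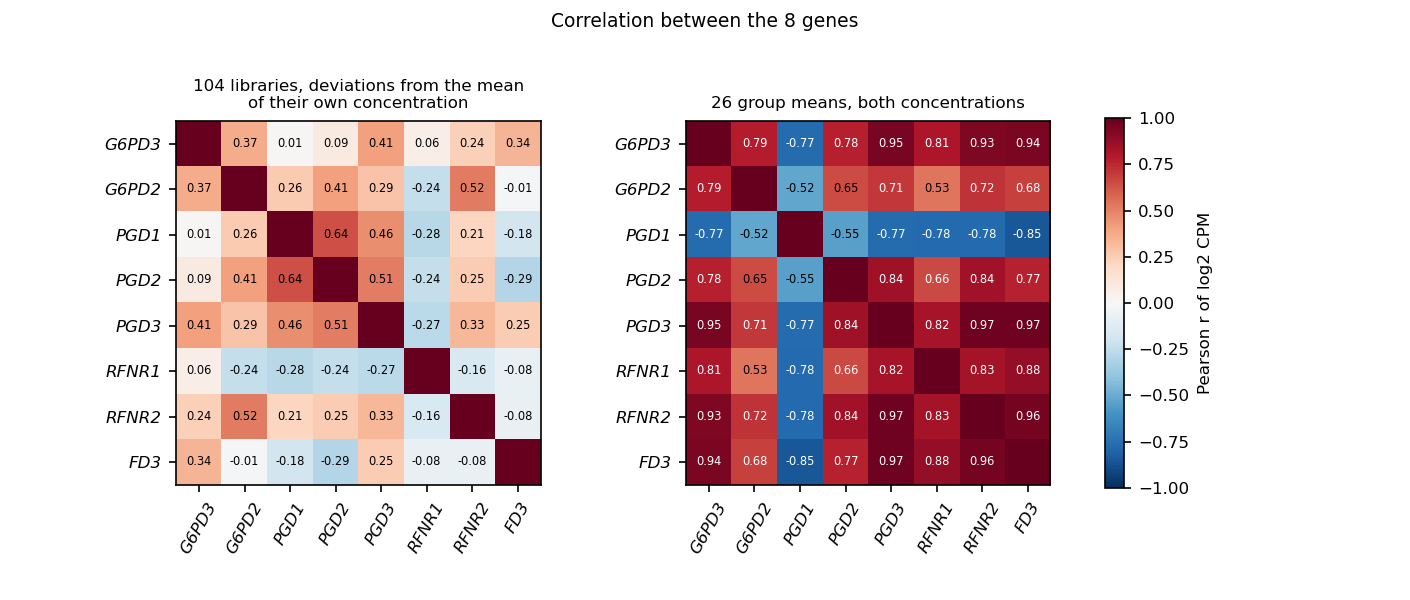
Pearson r of log2 CPM between the 8 genes, at left over the deviations of single libraries from the mean of their concentration and at right over 26 group means (colour scale -1 to 1). PGD1 and PGD2 go with each other at left (0.64) and against each other at right (-0.55).

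The genes most alike in those deviations were, for G6PD3, AT1G22410 (r = 0.67 over all libraries) and TAL2 (0.66), for G6PD2, NIR1 (0.71), the nitrite reductase gene, and ADK1 (0.69), and for PGD1, IP5PII (0.74) and AT1G15400 (0.70). PGD2 was most like AT3G11800 (0.74) and EMP1 (0.72), and PGD3 like PLDGAMMA1 (0.61) and G6PD5 (0.57), the cytosolic glucose-6-phosphate dehydrogenase. RFNR1 was most like AT3G05070 (0.66) and AT2G25870 (0.65), RFNR2 like AT4G31340 (0.73) and SLD1 (0.69), and FD3 like UBQ11 (0.74) and ERD2B (0.70). None of the 8 was among the 2 genes most like another of them.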

How the data were processed

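The authors deposited whole-number read counts per locus, 1 file per library and run. Per the labels' protocols, libraries followed the BRAD-seq DGE method; the submitters' processing notes name the build TAIR10 and the tools HTSeq, Bowtie, SAMtools, FastQC and limma, without roles or versions. Here the counts of both runs were summed; 279 organelle loci were left out, since run 2 lists them at 0. Library totals ranged between 3981966 and 13695037, with no molecular identifiers.

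In R 4.3.3, edgeR 4.0.16 was fitted with 1 coefficient per group of line and KNO3 (filterByExpr, minimum count 10; TMM; quasi-likelihood), adjusted by Benjamini-Hochberg over 19664 genes at 0.05. Comparisons were 10 against 1 mM over all lines and per line, each line against Col, and the difference of responses. Ratios between genes were tested by 100000 permutations within lines, and within strips where only the mixed strips were used. The fits were tested on simulated data. DESeq2 1.42.0, limma 3.58.1 and other settings were alternatives. Values within 1 group were compared for copies, and none were found. The labels call the samples biological replicates, and p-values measure the spread between them.

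The 8 genes, the pathway and marker lists (written from general knowledge) and the tests were chosen with earlier results of these data known. Named from each pathway list are called genes, at most the 4 with the largest change, and untested members, and for each of the 8 the 2 most alike genes. NIR1 is named besides, because its product draws on ferredoxin. Coordinates and upstream sequences come from RefSeq's TAIR10.1.

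Same-numbered libraries of a line did not deviate together (median r -0.03 over 52 pairs, with 4 over 0.1), so replicate numbers were not used as pairs. In the 10 mM libraries of replicate 3 of SALK_085964C and SALK_035980 the file names give the opposite line, and GEO's labels were kept.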

Additional observations from a re-analysis of the deposited data

Results flagged for a closer look

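Each of the 8 genes was examined in each of the 26 groups of 4 libraries for a library far from the others, with a gap to the nearest that exceeds Dixon's 95% limit for 4 values as a share of the range of the group. 7 of 208 such groups were flagged, where chance flags about 1 in 20 groups. 3 of the 7 are in libraries numbered replicate 2 of SALK_146141. At 10 mM that library had the highest G6PD3, 34.4 CPM against 21.7 to 23.4 in the other 3, and the highest RFNR2, 211 CPM against 159 to 164. At 1 mM the library of that number had the highest RFNR1, 83.9 CPM against 48.6 to 50.2, which is also the highest RFNR1 of all libraries. The fall of RFNR1 in SALK_146141 (log2 change -0.66) was -0.46 without replicate 2 (edgeR adjusted p = 0.00518).

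RFNR2 was highest in replicate 2 of SALK_012253 at 10 mM, 272 CPM against 176 to 186, and in replicate 1 of SALK_100002 at 1 mM, 403 CPM against 322 to 336. It was lowest in replicate 1 of GABI_513E07 at 10 mM, 173 CPM against 192 to 194. PGD3 was lowest in replicate 3 of SALK_035980 at 1 mM, 83.4 CPM against 99.8 to 103. RFNR2 and PGD3 stayed called in these lines with that replicate number left out.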

How the results depend on the processing

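Over all lines, G6PD3, PGD2, PGD3, RFNR1, RFNR2 and FD3 kept their direction and call in all 15 alternatives. G6PD2 lost its call with strip in the model (-0.15), in the mixed strips (-0.24) and in run 1 alone (-0.13), and without 1 replicate number it ranged between -0.22 and -0.032. PGD1 lost its call with strip in the model (0.083) and in the mixed strips (0.063). The cause was not tested. The number of genes called fell to 7563 with strip in the model and to 6100 in the mixed strips, which hold fewer libraries. In Col, run 1 alone called 2171 genes and lost FD3 (-0.46). PGD1, not called in Col, changed sign in run 2 alone (-0.060) and ranged between -0.019 and 0.17 without 1 replicate number, and RFNR1 between -0.24 and 0.10. The ratio of RFNR2 to FD3 lost its call in the mixed strips (-0.20). The 1 call of a line against Col became 0 in run 1 alone and in run 2 alone, and 0 to 1 without 1 replicate number. Of the pathway lists, rises among other ferredoxins and reductases were 3 with strip in the model and 2 in the mixed strips, against 5.

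With replicate number as a block, calls were 12877 over all lines and 5079 in Col, and each of the 8 genes kept its side of the threshold in both. Strip and KNO3 are mostly confounded, only 3 of 13 strips hold both, and with 4 libraries per group G6PD2 was called in no single line.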
